A study of Mus musculus with 47 samples.

Results

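Genes of DNA replication and mitosis were followed in the leukaemic spleens of 47 mice, each measured on 1 Affymetrix mouse genome array. The set was a list of 40 genes, 24 with roles from late S phase through cell division (here mitotic genes) and 16 with roles in starting and carrying out DNA synthesis (here S-phase genes). Of these, 39 were measured among 18193 genes on the array, 23 mitotic and 16 S-phase, each through the probe set naming that gene alone that had the highest mean. The cyclin B gene Ccnb1 was not analysed here, because the annotation table used paired no probe set with it.

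All mice had terminal disease, with a diagnosis of undifferentiated myeloid leukaemia, and all carried the same mutagenesis system. A Cre transgene under an actin promoter (Tg(ACTB-cre)2Mrt), which is active in most tissues, switches on a Sleeping Beauty transposase placed in the Rosa26 locus (Gt(ROSA)26Sortm2(sb11)Njen), and the transposase moves a T2/Onc2 transposon that can activate or disrupt the genes it lands in. The transposon array came from line 6113 in 21 mice and from line 6070 in 26. The labels recorded a transposon insertion in Erg, an ETS transcription factor gene, for 26 tumours and none for 21. They named 25 females and 22 males, with ages of 32 to 97 (median 68, unit not given), and no mice without leukaemia were analysed here.

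Dividing cells pass through linked programmes. Before S phase, E2F factors switch on the genes that license origins, unwind DNA and supply nucleotides, and later in the cycle B-Myb, FoxM1 and the MuvB complex switch on genes of spindle assembly, chromosome segregation and cytokinesis. MuvB binds a short promoter element called CHR, often near CCAAT boxes bound by NF-Y. In the mouse, the spleen remains a blood-forming organ in adult life, and its rapidly dividing erythroid precursors expand under stress.

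Promoters are shown first, because the 2 gene classes differed in the elements they held. RefSeq windows of 250 bases before to 50 bases after the start site (GRCm38.p6) were found for 33 of the 39 genes, 35 windows in all, since Prc1 and Mcm7 had 2 each. None was found in the table for Tpx2, Aurkb, Ccna2, Kif20a, Ccne2 and Mcm4. Each window was searched on both strands. The E2F letters were TTTCCCGC, TTTCGCGC, TTTGGCGC and TTTGCCGC. The CHR letters were TTTGAA, or else the related hexamer TTCGAA. The box bound by NF-Y was read as CCAAT, the binding letters of the factor SP1 as GGGCGG, and those of the GATA factors as AGATAA. The windows with the most E2F, CHR and CCAAT matches are printed for each class (Mcm3 had 5 matches, as Mcm5 and Mcm6 had, and was taken as first by name), from the minus strand in all 4 cases and 5′ to 3′, with those matches in capitals. Top2a (DNA topoisomerase II alpha, which untangles chromosomes) lies at chr11:99024140-99024439 and Cdk1 (the kinase that drives entry into mitosis) at chr10:69352863-69353162. Mcm7 and Mcm3, subunits of the replicative helicase, lie at chr5:138171834-138172133 and chr1:20820263-20820562.
Top2a: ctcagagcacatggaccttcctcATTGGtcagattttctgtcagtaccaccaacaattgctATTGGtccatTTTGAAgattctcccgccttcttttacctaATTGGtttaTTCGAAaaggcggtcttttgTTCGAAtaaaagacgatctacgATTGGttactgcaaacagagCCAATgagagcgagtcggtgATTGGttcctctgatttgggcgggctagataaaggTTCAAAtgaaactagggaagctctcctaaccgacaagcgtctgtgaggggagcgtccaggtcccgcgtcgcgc
Cdk1: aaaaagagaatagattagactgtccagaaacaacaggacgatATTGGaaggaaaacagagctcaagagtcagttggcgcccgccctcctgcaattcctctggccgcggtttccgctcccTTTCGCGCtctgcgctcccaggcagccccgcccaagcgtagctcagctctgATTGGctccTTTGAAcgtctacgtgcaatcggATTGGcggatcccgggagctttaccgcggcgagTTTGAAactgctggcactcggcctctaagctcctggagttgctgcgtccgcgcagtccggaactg
Mcm7: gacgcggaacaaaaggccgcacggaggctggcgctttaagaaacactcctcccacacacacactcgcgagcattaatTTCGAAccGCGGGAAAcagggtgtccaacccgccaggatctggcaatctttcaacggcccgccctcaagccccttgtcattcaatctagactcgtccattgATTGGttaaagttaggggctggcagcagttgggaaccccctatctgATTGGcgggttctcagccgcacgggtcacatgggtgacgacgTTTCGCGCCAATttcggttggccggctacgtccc
Mcm3: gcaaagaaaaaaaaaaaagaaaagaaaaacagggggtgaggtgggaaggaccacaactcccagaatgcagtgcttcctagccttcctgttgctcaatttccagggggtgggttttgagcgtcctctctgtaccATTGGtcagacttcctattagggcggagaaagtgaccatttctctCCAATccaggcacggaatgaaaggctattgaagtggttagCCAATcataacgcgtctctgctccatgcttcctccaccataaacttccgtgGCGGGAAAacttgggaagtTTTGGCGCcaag

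The Top2a window held 4 CHR and 6 CCAAT matches and no E2F match. The Cdk1 window held 2 CHR, 3 CCAAT and 1 E2F match. The Mcm7 window printed held 2 E2F, 1 CHR and 3 CCAAT matches, one of the E2F matches overlapping a CCAAT match by shared letters. The Mcm3 window held 2 E2F and 3 CCAAT matches and no CHR match. CHR letters were in 16 of 20 mitotic windows (80%) and in 2 of 15 S-phase windows (13.33%), against 19.23% of all 32851 RefSeq windows of 27025 genes. E2F letters ran the other way, in 1 of 20 mitotic windows (5%) and 6 of 15 S-phase windows (40%), against 2.26% of all windows. CHR and CCAAT letters stood together in 16 of 20 mitotic and 2 of 15 S-phase windows, against 7.52% of all. SP1 letters were in 16 of 20 mitotic and 12 of 15 S-phase windows, 80% of each (35.66% of all), while GATA letters were in 2 of 20 and 0 of 15 (11.18% of all). These counts describe letters within the windows and were not tested.

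Series-wide checks set the frame for what follows. Array medians of the log2 values lay between 5.19 and 5.24 and the lowest single value was 4.78, so genes near log2 5 sat at the floor. Correlations between arrays ran from 0.903 to 0.991. The expression of the Xist transcript matched the sex label in 23 arrays and not in 24, about what labels unrelated to the arrays would give. Xist was above log2 7 in 25 arrays, and 25 were labelled female. The labels therefore cannot be taken to belong to the arrays that bear them, and comparisons by label are given under that limit. Relations between genes within the arrays do not use the labels. The spleens held RNA of several blood lineages in varying amounts. The mean log2 level over 19 erythroid genes ranged from 6.00 to 8.81 (median 7.89) and over 16 neutrophil genes from 5.32 to 8.34 (median 5.95). It ranged from 5.31 to 8.26 over 15 B cell and B precursor genes (median 5.80) and from 5.24 to 8.01 over 13 T and NK cell genes (median 5.68). The means of the B cell and T cell lists thus lay close to the array floor in most spleens, and well above it in some. The neutrophil mean was also low in most, but it hides differences between genes. The neutrophil gene S100a8 had a median of 8.09 and was above log2 7 in 30 spleens.

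Both proliferation markers were well above the floor in all 47 spleens. Mki67, which coats mitotic chromosomes and marks cycling cells, had a lowest, median and highest log2 level of 8.96, 9.75 and 10.60 (SD 0.35). Top2a had 8.52, 9.13 and 9.51 (SD 0.22). No spleen lacked the RNA of either gene, and the highest Mki67 array exceeded the lowest by 1.63 log2 units. Levels of different genes are not set against each other here, since each probe set has its own response.

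Among the other mitotic genes, Ccna2 (cyclin A2) ranged from 8.04 to 9.43 with a median of 8.86 (SD 0.30). Ccnb2 (cyclin B2) ranged from 7.19 to 8.60 with a median of 8.09 (SD 0.30). Cdk1 ranged from 7.17 to 7.96 with a median of 7.61 (SD 0.18). The kinases Plk1 and Nek2 varied least in this class (SD 0.16 and 0.15), and the spindle motor Kif11 and the cytokinesis motor Kif23 varied more (SD 0.27 and 0.26). Birc5 (survivin, a subunit of the chromosomal passenger complex) had a median of 8.09 and a highest value of 8.82.

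Among the S-phase genes, Pcna, the sliding clamp of DNA polymerase, had a lowest, median and highest level of 9.73, 10.56 and 11.02 (SD 0.25). The helicase subunits Mcm2 to Mcm7 had SDs between 0.20 and 0.26. The genes that varied most over the 47 spleens were Rrm2, the small subunit of ribonucleotide reductase, at 8.43, 9.44 and 10.63 (SD 0.43), and Ccne2 (cyclin E2), at 6.18, 7.02 and 8.22 (SD 0.42). Cdc6, which loads the helicase at origins, followed at 6.60, 7.44 and 8.26 (SD 0.36). Rrm2 had a range of 2.20 log2 units, while Rrm1, the large subunit of the same enzyme, had 0.76 (8.29, 8.73 and 9.05).

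Some genes of both classes were dim, which compresses their differences. Of the mitotic genes, Kif20a ran from 5.65 to 6.80 and Ttk from 5.67 to 6.74. E2f1, a transcription factor of the G1 to S step, ran from 5.58 to 6.04, and Ung, which removes uracil from DNA, ran from 5.75 to 6.88. Tyms (thymidylate synthase) stayed between 5.07 and 5.54, at the floor, and its other 3 single-gene probe sets were dim too. A probe set assigned to Tyms together with another gene read 6.69, 7.52 and 8.04, and was not used. Further probe sets existed for 29 of the 39 genes, 53 in all, of which 27 correlated above 0.5 with the one kept (range -0.18 to 0.94). The 2 lowest correlations belonged to probe sets of Rrm1 and Top2a with medians of 5.04 and 5.05, at the floor.

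**Figure D1:**
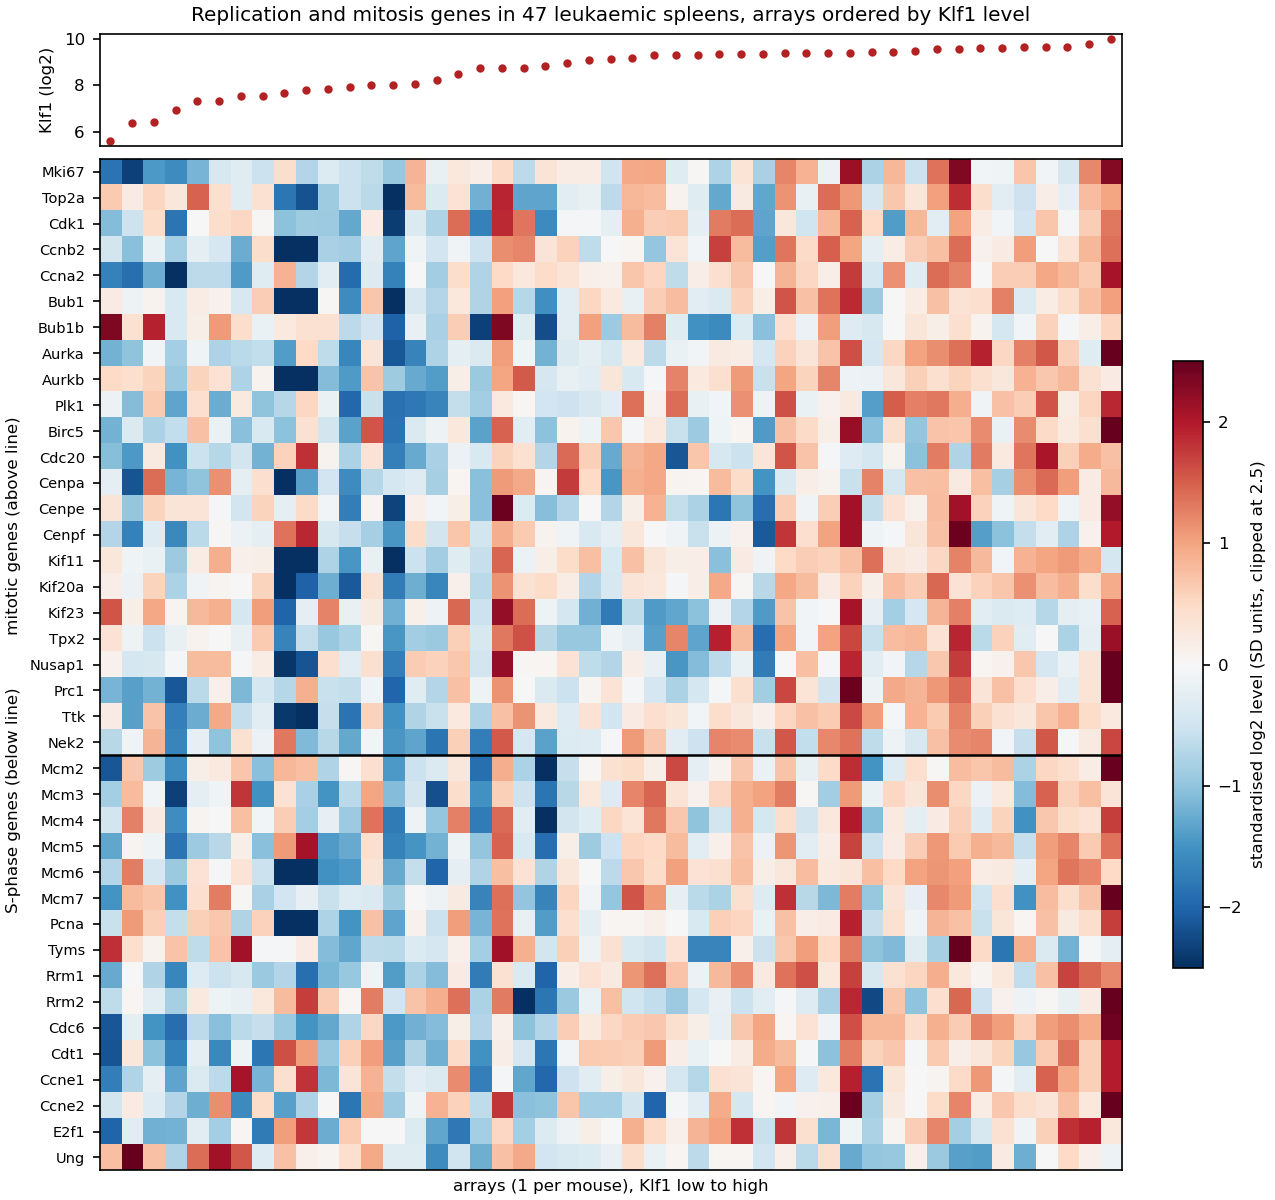
Standardised log2 levels of the 39 genes (rows; mitotic above the line, S-phase below) in 47 arrays (columns), ordered by the Klf1 level drawn on top. Colour gives SD units from the gene's own mean. The 23 genes that rose with Klf1 turn from blue at the left towards red at the right, and single columns are red or blue over most genes.

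The 39 genes varied together over the 47 spleens. Pearson's r between pairs had a median of 0.46 within the mitotic class (253 pairs, 40.7% above 0.5) and 0.43 within the S-phase class (120 pairs, 41.7% above 0.5). Between the classes it was 0.34 (368 pairs, 26.1% above 0.5). Over all pairs of the 18178 tested genes the median was 0.0087, and 2.54% were above 0.5. These values share the arrays, their normalization and their RNA quality, and are descriptions. The highest r within the mitotic class was 0.85, between Aurkb, the kinase of the chromosomal passenger complex, and Kif20a, a motor that moves this complex at cell division. Within the S-phase class it was 0.79, between the helicase subunits Mcm2 and Mcm4, and between classes 0.83, for Bub1 (a spindle checkpoint kinase) with Pcna. Aurkb, Kif20a, Bub1 and Pcna all fell with the gap between the array's 3′ and 5′ control probe sets, a measure of RNA quality (r = -0.65, -0.49, -0.45 and -0.52), whose part in these pairs was not tested.

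The class means, taken over standardised genes, had r = 0.71 and rho = 0.69 with each other, and r = 0.65 once the 2 outermost arrays were left out. Of the 23 mitotic genes, 21 correlated better with the mean of the other mitotic genes than with the S-phase mean, the exceptions being Cdc20 and Nek2. Of the 16 S-phase genes, 12 were closer to their own class, and Mcm6, Pcna, Tyms and Ccne2 were closer to the mitotic mean. Pcna had r = 0.76 with the mitotic mean and 0.58 with the S-phase mean. The pair of markers was only loosely tied, with r = 0.39 between Mki67 and Top2a, whereas Mki67 had r = 0.82 with Ccna2. Ung stood apart, with r = -0.49 with Mki67, the lowest of all 741 pairs.

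Spleens at the ends were high or low for many of these genes at once. The arrays labelled Erg insertion, numbers 21 and 18, were among the 5 highest for 25 and 18 of the 39 genes, and the array labelled no Erg insertion, number 17, for 24. The array labelled Erg insertion, number 2, was among the 5 lowest for 24 genes and among the 5 highest for none. The first of these had Klf1 at 9.40 and Vpreb1 at 5.70, the next 8.75 and 9.21, and the array without an insertion 9.99 and 9.34. The low array had Klf1 at 8.02 and Vpreb1 at 10.92, so a high Vpreb1 level occurred at both ends.

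**Figure D2:**
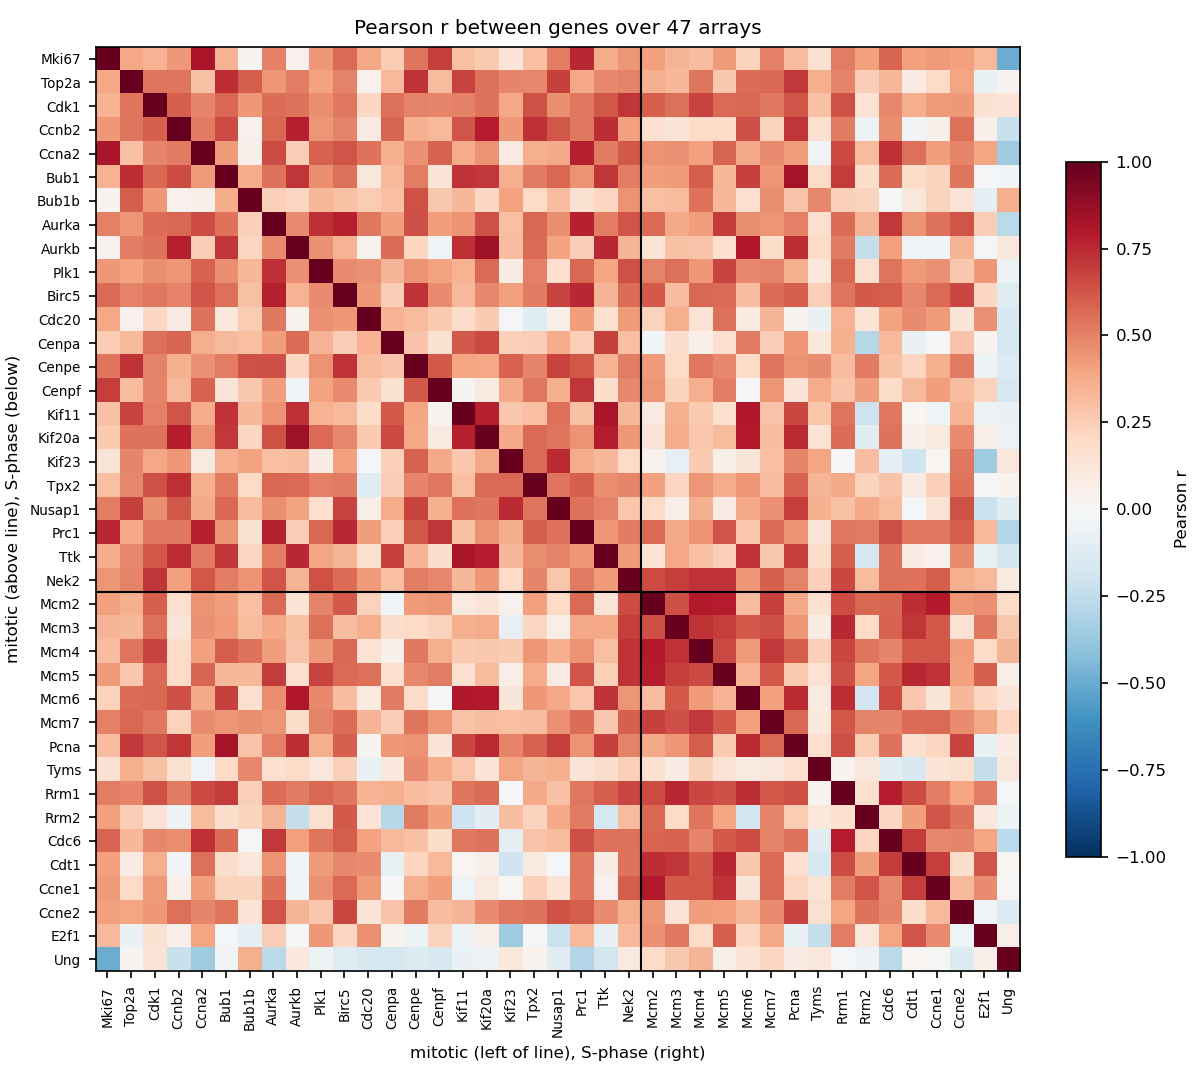
Pearson's r over 47 arrays for every pair of the 39 genes, mitotic genes left of and above the lines and S-phase genes right of and below them. The blocks on the diagonal have median r of 0.46 and 0.43. The palest stripes are those of Ung and Tyms.

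Genes outside the set that followed it most closely were found by their r with the mean of the 39 standardised genes. Of 18139 other tested genes, 409 had r above 0.5. The closest was Plk4, the kinase that starts centriole duplication (r = 0.88), followed by Slbp, which binds histone mRNA (0.86), and Rfwd3, a ubiquitin ligase of the replication stress response (0.85). Next came the chromosome motor Kif4 and the cohesin protector Sgo1 (0.85 each) and the DNA ligase of replication Lig1 (0.84). Spag5, Cenpi, Ska2, Spc25, Hmmr and Brca1 had r between 0.80 and 0.83. Of other listed replication genes 29 of 48 passed 0.5, and of other mitosis genes 38 of 59. Of genes of G1 control and brakes on the cycle 6 of 37 did. That share was smaller than in the replication and mitosis lists but larger than over all other tested genes. Wee1, the kinase that restrains Cdk1, was highest at 0.66 and E2f5 lowest at -0.50.

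The first lineage question was whether the genes followed erythroid RNA, read from Klf1, the master transcription factor of red cell development. Klf1 had a lowest, median and highest level of 5.62, 9.14 and 9.99. With limma's slope on the Klf1 level and adjustment over all 18177 tested genes, 23 of the 39 genes rose with Klf1, 1 fell and 15 did not pass the threshold of 0.05. Over all genes, 18.9% rose with Klf1 and 14.8% fell. The median slope was 0.08 log2 units per log2 unit of Klf1 over the 39 genes and 0.0045 over all genes. The values over all genes include many dim genes. No share among brighter genes alone is given for this fit, so the size of the excess is not read. In whole tissue, fewer cells of a type and less RNA per cell cannot be told apart.

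Cdc6 had the steepest slope, 0.29 ± 0.03 (SE, n = 47 arrays, limma adjusted p = 2.3e-10), with r = 0.81. Its level was 6.60 in the spleen with the lowest Klf1 and 8.26 in the spleen with the highest. Ccna2 rose by 0.22 ± 0.03 (limma adjusted p = 1.66e-08) and Mki67 by 0.22 ± 0.04 (limma adjusted p = 4.29e-06). The helicase loader Cdt1, a partner of Cdc6, rose by 0.15 ± 0.04 (limma adjusted p = 0.00139) and cyclin Ccnb2 by 0.15 ± 0.04 (limma adjusted p = 0.000563). The mitotic kinase Aurka, the ribonucleotide reductase subunit Rrm1 and the spindle midzone protein Prc1 rose by 0.13, 0.13 and 0.12. The 4 spleens with Klf1 below 7 had the 4 lowest Mki67 levels, 8.96 to 9.29.

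By class, 15 of 23 mitotic genes rose and none fell, and 8 of 16 S-phase genes rose and 1 fell. Among the helicase genes Mcm2, Mcm3, Mcm5 and Mcm6 rose, with slopes of 0.07 to 0.12, while Mcm4 had 0.03 and Mcm7 0.05 and did not pass. Ung was the gene that fell, by 0.11 ± 0.02 (limma adjusted p = 0.000537). Its highest value, 6.88, was in a spleen with Klf1 at 6.39 and Cd3d at 10.09. Genes with slopes close to 0 were Top2a at 0.02 ± 0.03 (limma adjusted p = 0.588) and Rrm2 at -0.0011 ± 0.061 (limma adjusted p = 0.992). Kif23 and the checkpoint kinase gene Bub1b had negative slopes that did not pass.

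**Figure D3:**
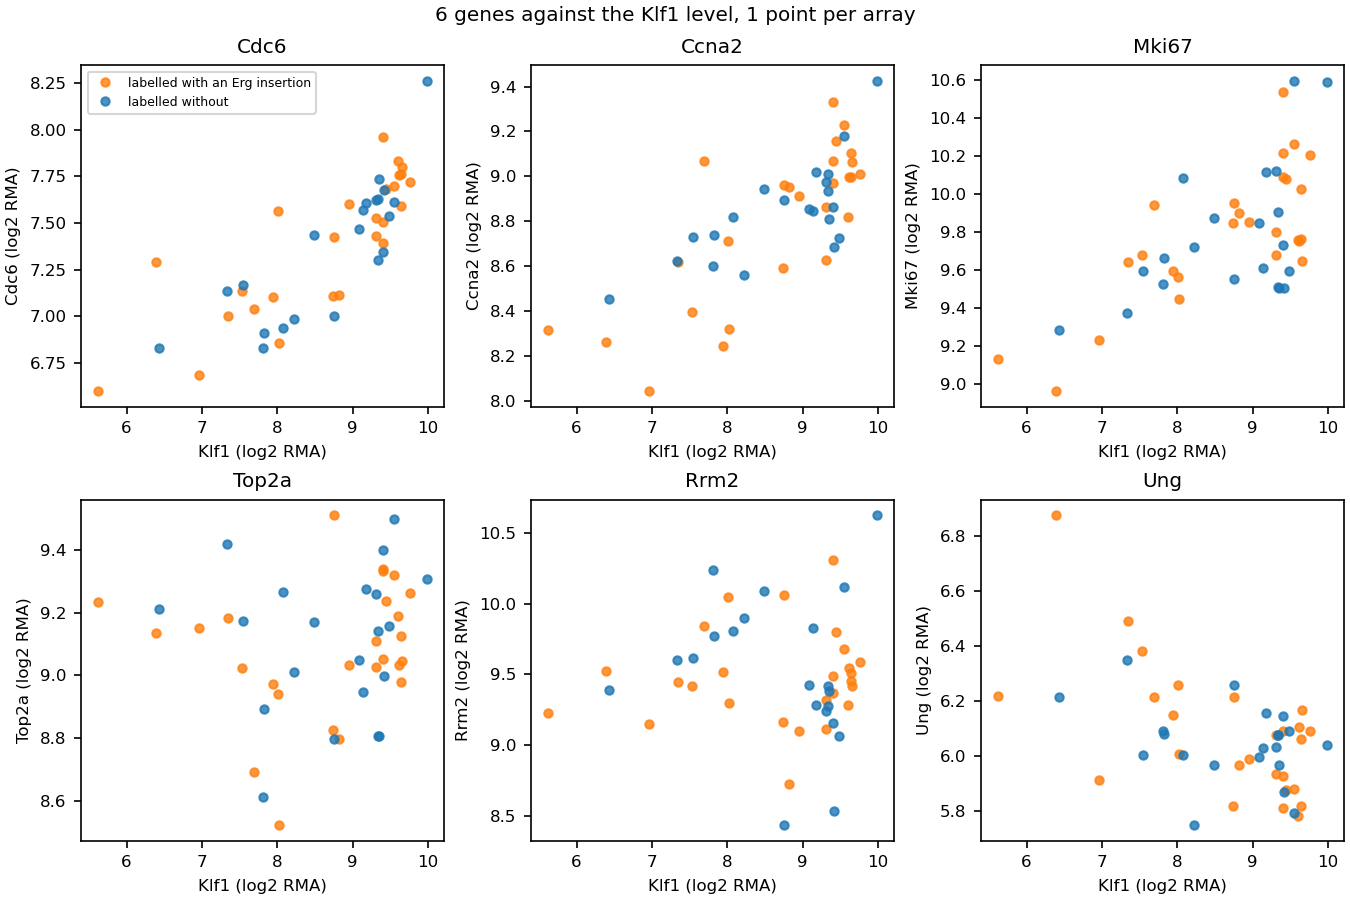
Log2 level of 6 genes against the log2 level of Klf1, 1 point per array, orange for arrays labelled with an Erg insertion and blue for those without. Cdc6, Ccna2 and Mki67 climb with Klf1 (r = 0.81, 0.76 and 0.66), Top2a and Rrm2 show no slope (r = 0.12 and -0.0026), and Ung falls (r = -0.54).

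Klf1 moved with the other lineages. Per log2 unit of Klf1, Vpreb1 fell by 0.88 ± 0.28 (limma adjusted p = 0.0105), S100a8 by 0.82 ± 0.25 (limma adjusted p = 0.00942) and Cd3d by 0.65 ± 0.18 (limma adjusted p = 0.00303). Of the listed genes, 16 of 18 erythroid genes rose with Klf1, 13 of 15 B cell genes and 12 of 13 T and NK cell genes fell, and of 16 neutrophil genes 6 fell and 1 rose. The slopes on Klf1 were therefore fitted again with Klf1, Vpreb1, S100a8 and Cd3d in one model, where 12 of the 39 genes rose and Ung fell (8.77% of all genes called in either direction). Of the 24 genes called on Klf1 alone, 10 were called here too. Among them, Cdc6 rose by 0.32 ± 0.04 (limma adjusted p = 1.01e-06) and Mki67 by 0.27 (limma adjusted p = 0.000152).

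In the 25 spleens with both Vpreb1 and Cd3d at or below log2 7, Klf1 ran only from 7.69 to 9.76. There 14 of the 39 genes rose with Klf1 and none fell (9.78% of all genes called), 10 of them among the 24. Mki67 did not pass in these spleens (slope 0.05, limma adjusted p = 0.866), nor did Ccna2 (slope 0.05, limma adjusted p = 0.779), while Top2a rose by 0.28 ± 0.07 (limma adjusted p = 0.00721). A single spleen decided most of this count. Without the array labelled Erg insertion, number 23, which had the lowest Klf1 of the 25 (7.69) and a high 3′ minus 5′ control difference (2.61), 3 genes were called, Mcm5, Cdc6 and Ccne1 (1.02% of all genes), and Top2a had 0.35 ± 0.10 (limma adjusted p = 0.107). The slopes of Mki67 and Ccna2 also moved without that array, to 0.18 ± 0.20 and 0.25 ± 0.12, and did not pass (limma adjusted p = 0.758 and 0.359). Cdc6 was called in each of these fits, with a slope of 0.69 ± 0.10 without that array (limma adjusted p = 0.00544).

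Mki67 and Top2a were also set against the lineage markers as single values, in 16 relations adjusted together. Mki67 had r = 0.66 and rho = 0.56 with Klf1 (permutation p = 1e-05 and 5e-05, adjusted 0.00016 and 0.0008, the p of r being the smallest the permutations can give). With the 2 arrays of most extreme Klf1 removed, r was 0.57 (adjusted permutation p = 0.0008). Top2a had r = 0.12 and rho = 0.21 with Klf1 (permutation p = 0.439 and 0.152, adjusted 0.902 and 0.551). With S100a8, r was 0.01 for Mki67 and -0.15 for Top2a (adjusted permutation p = 0.932 and 0.902). Vpreb1 and Cd3d were near the floor in most spleens and bright in others, so no pooled r of Mki67 or Top2a with them is given. Spleens were split at log2 7, a cut that falls in no clear gap. Values on either side of it were 6.71 and 7.28 for Vpreb1 and 6.79 and 7.36 for Cd3d. The pooled relations were among the 16, and that of Mki67 with Cd3d had an adjusted permutation p of 0.0233 for r and 0.335 for rho, and 0.311 for r without the 2 farthest arrays.

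Within the 9 spleens with Cd3d above log2 7, Mki67 had r = -0.75 and rho = -0.62 with Cd3d (exact permutation p = 0.0175 and 0.0857, adjusted 0.0932 and 0.457). In these 9 spleens the 3 with Cd3d above 10 had Mki67 levels of 9.24, 8.96 and 9.37, and the other 6 had levels from 9.57 to 9.85. Klf1 was 6.96, 6.39 and 7.33 in those 3 spleens. Within the 38 spleens with less Cd3d, r was 0.05 (adjusted permutation p = 0.902). Within the 15 spleens with Vpreb1 above log2 7, r was -0.11 for Mki67 and -0.09 for Top2a (adjusted permutation p = 0.902 each), and within the other 32 it was 0.05 and -0.07 (adjusted permutation p = 0.902 each).

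Fewer genes were called on the other 3 markers. Over both directions, the share called of the 39 genes was below that of all genes for Vpreb1. It was close to that of all genes for S100a8 and Cd3d, where falls alone took a larger share and rises a smaller one. Nothing particular to the set is read from these counts. Vpreb1, a surrogate light chain gene of early B cells, ran from 5.18 to 11.06 and was above log2 7 in 15 spleens, so its slopes mainly set these against the other 32. Rrm2 rose with Vpreb1 by 0.09 ± 0.03 (limma adjusted p = 0.00915) and Kif23 by 0.05 ± 0.02 (limma adjusted p = 0.0101), and Mcm6, Rrm1, Cdc6 and E2f1 fell. That makes 2 genes up and 4 down of 39, where 10.9% of all genes rose and 17.5% fell. Mcm6 and Cdc6, which fell by 0.05 and 0.07, had slopes of 0.0064 and 0.0085 with the 4 markers in one model (limma adjusted p = 0.891 and 0.858), where Rrm2 and Ccne2 were the genes called, both upward. With the mean over a gene's probe sets, Mcm6 (-0.0257, limma adjusted p = 0.0678), Rrm1 (-0.021, limma adjusted p = 0.197) and E2f1 (-0.0118, limma adjusted p = 0.128) no longer passed, nor did E2f1 with the labels as covariates (-0.0165, limma adjusted p = 0.0989).

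S100a8, a calcium-binding protein abundant in neutrophils, ran from 5.05 to 11.99. With it 9 genes fell and 1 rose, against 17.6% of all genes that fell and 9.5% that rose. The genes that fell included Aurkb, Kif20a, Kif11 and Plk1 of mitosis and Mcm6, Rrm1 and Cdc6 of S phase. Mcm6 fell by 0.08 ± 0.02 (limma adjusted p = 0.000259) and Kif11 by 0.07 ± 0.02 (limma adjusted p = 0.000815). Rrm2 was again the gene that rose, by 0.08 ± 0.03 (limma adjusted p = 0.0265). With the mean over a gene's probe sets, Rrm2 had 0.0291 (limma adjusted p = 0.464), and Bub1 (-0.0211, limma adjusted p = 0.12) and Ttk (-0.0183, limma adjusted p = 0.0744) no longer passed either. With the 4 markers in one model Aurkb, Kif11, Kif20a and Mcm6 were called (7.47% of all genes), and in the 25 spleens low in both lymphoid markers none was (2.98% of all genes).

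Cd3d, a subunit of the T cell receptor complex, ran from 5.24 to 10.23 and was above log2 7 in 9 spleens. Mki67, Ccna2, Prc1 and the checkpoint kinase gene Ttk fell with it and Ung rose, against 5.01% of all genes that fell and 6.91% that rose. Ccna2 fell by 0.11 ± 0.03 (limma adjusted p = 0.0029) and Ung rose by 0.07 ± 0.02 (limma adjusted p = 0.00757). These 5 calls rested on few spleens. Leaving out the arrays labelled Erg insertion, numbers 22 and 26, 1 at a time, left 2 and 1 calls, and leaving out the array labelled no Erg insertion, number 12, left 3. With the 4 markers in one model none of the 39 genes was called. No share of all genes is given for these fits, so the lost calls are not read as particular to the 39 genes.

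**Figure D4:**
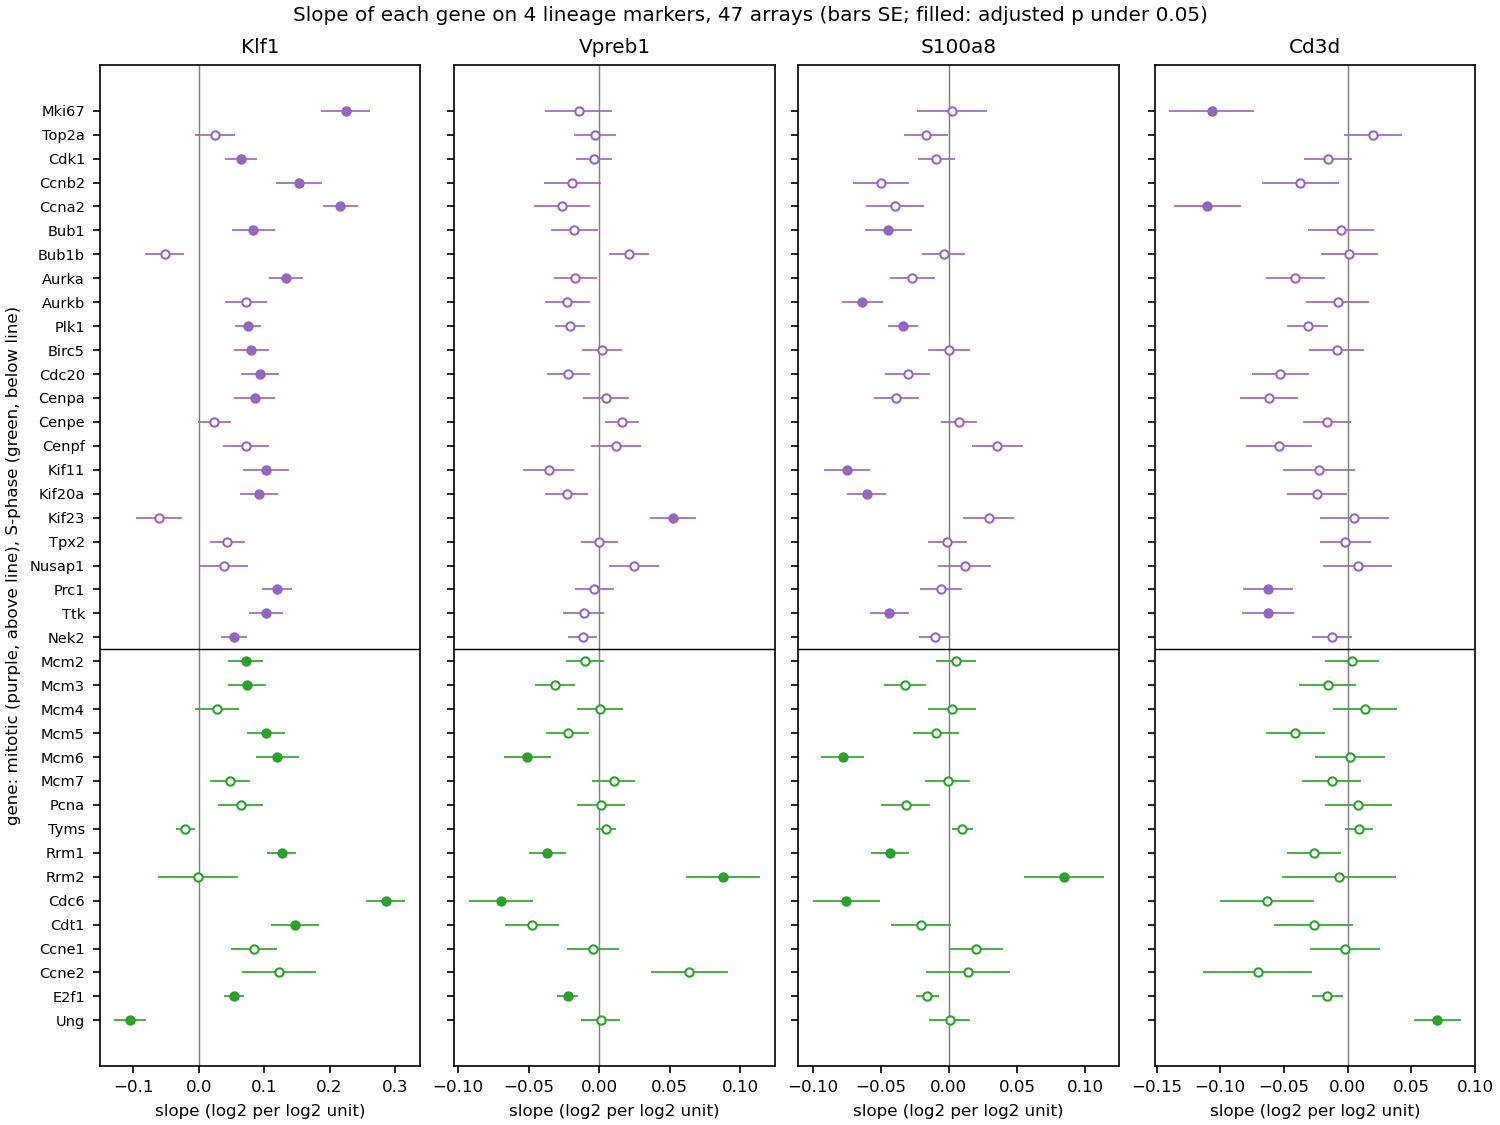
Slope of each of the 39 genes on Klf1, Vpreb1, S100a8 and Cd3d (log2 per log2 unit, each marker alone, 47 arrays), with SE bars, mitotic genes in purple and S-phase genes in green. Filled points had a limma adjusted p under 0.05, which 24, 6, 10 and 5 genes had. The panels have different horizontal scales.

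Of 48 other replication genes 25 rose with Klf1 and 5 fell, led by Fen1, the flap nuclease (0.22 ± 0.02, limma adjusted p = 9.34e-10), and Orc5 of the origin recognition complex (0.24 ± 0.03, limma adjusted p = 1.12e-08). The genes that fell included Hells and Uhrf1, which act in maintaining DNA methylation, by 0.22 and 0.14. Of 59 other mitosis genes 33 rose and 3 fell. The tubulin gene Tubb4b rose by 0.42 ± 0.04 (limma adjusted p = 7.73e-12) and Cks2, a Cdk-binding protein, by 0.24 ± 0.02 (limma adjusted p = 1.75e-13), while Cep55, of the last step of cytokinesis, fell by 0.61 ± 0.07 (limma adjusted p = 1.37e-09). Of 37 genes of G1 control and brakes 10 rose and 5 fell, against 18.9% and 14.8% of all genes, and nothing particular to the list is read from these counts. Among them were Lin54 of the MuvB complex (0.23) and E2f8 (0.21), which rose, and the antiproliferative Btg1, which fell by 0.42. Cep55 rose with each of Vpreb1, S100a8 and Cd3d, by 0.22, 0.17 and 0.24.

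To set the S-phase genes against the mitotic ones, each gene was fitted on Mki67 and on the helicase subunit Mcm2 in one model, which left 37 genes. On the Mki67 term, 7 of 22 mitotic genes and 1 of 15 S-phase genes rose, and 1 S-phase gene fell. Over all genes 5.06% rose and 4.57% fell. On the Mcm2 term, 9 of 15 S-phase genes and 3 of 22 mitotic genes rose and none fell, where 0.638% of all genes rose and 0.902% fell. These shares include many dim genes. With the filter at log2 7, 6 of 15 mitotic genes rose on the Mki67 term, where 26% of all genes were called in either direction. On the Mcm2 term 8 of 11 S-phase genes rose with that filter, where 4.93% of all genes were called. The genes rising on the Mki67 term were Ccna2, Cenpf, Prc1, Nusap1, Birc5, Cenpe, Ccnb2 and Cdc6, and those on the Mcm2 term were Mcm3, Mcm4, Mcm5, Mcm7, Rrm1, Rrm2, Cdt1, Ccne1, Ung, Cdk1, Birc5 and Nek2. The median slope on Mcm2 was 0.66 over the S-phase genes and 0.23 over the mitotic genes. On the Mki67 term 16 of 19 erythroid genes rose as well, with a median slope of 1.10 against 0.21 over the mitotic genes. Of 13 T and NK cell genes 9 fell on it. The Mki67 term thus moved with lineage RNA too and is not read as mitosis alone. On the Mcm2 term 1 of 19 erythroid genes rose.

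Ccna2 had a slope of 0.64 ± 0.08 on Mki67 (limma adjusted p = 9.87e-07) and 0.20 ± 0.14 on Mcm2 (limma adjusted p = 0.638). Mcm4 had 0.96 ± 0.12 on Mcm2 (limma adjusted p = 2.66e-06), Ccne1 (cyclin E1) 0.97 ± 0.13 (limma adjusted p = 9.66e-06) and Mcm5 0.85 ± 0.11 (limma adjusted p = 1.07e-05). Birc5 rose on both terms, by 0.23 on Mki67 and 0.47 on Mcm2. Ung moved in opposite directions, by -0.40 ± 0.07 on Mki67 (limma adjusted p = 0.000355) and 0.48 ± 0.12 on Mcm2 (limma adjusted p = 0.0305). With Top2a and Mcm5 as the pair, 14 of 22 mitotic and 5 of 15 S-phase genes rose on the Top2a term, and 10 of 22 mitotic and 9 of 15 S-phase genes on the Mcm5 term (6.45% and 9.15% of all genes called).

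**Figure D5:**
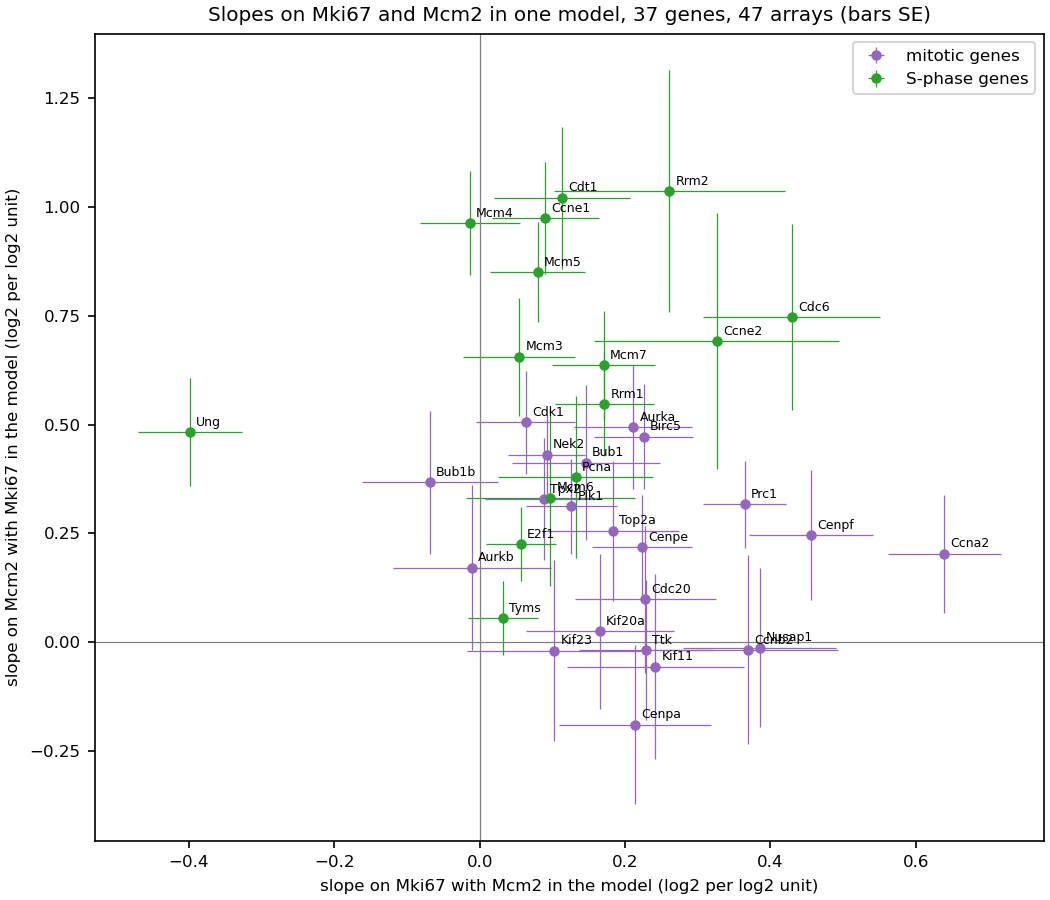
Slope on Mki67 (horizontal) and on Mcm2 (vertical) from one model for 37 genes over 47 arrays, in log2 per log2 unit, with SE bars. S-phase genes (green) lie mostly high, with a median slope of 0.66 on Mcm2, and mitotic genes (purple) mostly low, with 0.23. Ccna2 is farthest right and Ung farthest left.

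A measure of RNA quality moved with some of these genes. The difference between 3′ and 5′ control probe sets of Gapdh and Actb, which grows as RNA is degraded or labelled over shorter stretches, had a lowest, median and highest value of 0.65, 1.31 and 2.96 log2 units. Of the 39 genes 9 fell and 2 rose with it, where 8.14% of all genes fell and 10.4% rose. Those that fell were Aurkb, Kif11, Kif20a, Ttk, Bub1, Ccnb2, Cenpa, Mcm6 and Pcna, with Aurkb and Kif11 falling by 0.35 and 0.34 per unit, and Cdt1 and E2f1 rose. The arrays with the largest differences, labelled Erg insertion number 23 (2.61) and no Erg insertion number 19 (2.96), had Klf1 levels of 7.69 and 7.82. The control difference had r = 0.18 with Klf1, and with it as a covariate 25 genes rose with Klf1 and 1 fell. No share of all genes is given for that fit, so its difference from the fit without the covariate is not read. On the Mki67 term beside Mcm2 the same covariate gave 14 of 22 mitotic and 3 of 15 S-phase genes that rose, where 7 and 1 rose without it. Of all genes, 10.7% were called in either direction with the covariate and 9.62% without.

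By label, none of the comparisons called any of the 39 genes, and 0% of all 18178 genes were called for the Erg label, 0% for the line, 0% for sex and 0% for age. At an unadjusted p under 0.05, limma had 1 of the 39 genes for the Erg label, 2 for the line, 1 for sex and 3 for age, and 666, 540, 460 and 688 of all genes. Mki67 averaged 9.79 ± 0.35 (SD, n = 26) in tumours labelled with an Erg insertion and 9.78 ± 0.36 (SD, n = 21) in those labelled without. The lowest, median and highest Mki67 levels were 8.96, 9.78 and 10.54 with an insertion and 9.29, 9.67 and 10.60 without, and the groups overlapped over nearly their whole range. The difference, with line and sex as covariates, was -0.0089 ± 0.11 (limma adjusted p = 0.999).

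Top2a averaged 9.08 ± 0.21 (SD, n = 26) in tumours labelled with an insertion and 9.10 ± 0.23 (SD, n = 21) without. Cdk1 had the smallest unadjusted p for this label, with a difference of -0.13 ± 0.05 (limma p = 0.019, adjusted p = 0.999). For line 6113 against line 6070, E2f1 had -0.10 ± 0.03 (limma p = 0.00318, adjusted p = 0.999) and Mcm2 -0.13 ± 0.06 (limma p = 0.0257, adjusted p = 0.999). No interaction of Erg label and line was called over all genes by limma, and the smallest adjusted p among the 39 genes was 0.703. With Xist and sex labels at odds in 24 arrays, these comparisons bear on the labels as deposited. The sex comparison called no gene, Xist included. The lack of calls therefore does not show that Erg insertion, line, sex or age has no effect.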

How the data were processed

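Per the submitters' processing notes, the authors ran RMA (affy, R 2.15) and deposited its log2 output, which is corrected for background and quantile normalized. Gene names for the 45101 probe sets were read from the platform annotation (34945 with 1 gene, 932 with several, 9160 unnamed, 64 controls), and the 1-gene probe set with the highest mean was kept per gene. Groups came from the labels, and every array is a separate mouse. Precision is limited by the 47 arrays.

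Models were fitted in limma 3.58.1 (R 4.3.3) for every gene that exceeded log2 5 on 9 or more arrays. P-values were adjusted by Benjamini-Hochberg across that whole table, and calls were made at 0.05. The Erg, line and sex labels were in one model, with age added for its own slope. Slopes on Klf1, Vpreb1, S100a8 and Cd3d used no covariates and left out the marker itself. Relations of single genes used two-sided permutation tests (100000 resamples, exact for 9 arrays), adjusted over 16 relations rather than the 8 planned, because those with Vpreb1 and Cd3d were split by cluster.

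All listed genes could be named. Outside them, the 12 genes closest to the set's mean and, per other cell cycle list and marker, up to 2 per direction with the smallest adjusted p were named, and promoters with the most matches were printed, leaving out 1 chromosome. The genes and lists were chosen with earlier results of these data known. The fits were tested on simulated data. Alternatives were the mean of probe sets, a filter at log2 7, the control difference, labels or all 4 markers as covariates, the tumour identifier's number as a block, restricted arrays and arrays left out.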

Additional observations from a re-analysis of the deposited data

How the results depend on the processing

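Settings moved counts of genes called among the 39 most where other lineages were modelled or spleens removed. With 4 lineage markers in one model the count called on Klf1 was 13 in place of 24, on Vpreb1 2 in place of 6, on S100a8 4 in place of 10 and on Cd3d 0 in place of 5. In the 25 spleens with little Vpreb1 and Cd3d the count was 14 on Klf1 and 0 on S100a8. It was 3 to 15 on Klf1 when each of these 25 arrays was left out in turn, with 1.02% to 11.3% of all genes called. Leaving out each of the 47 arrays in turn gave 19 to 25 on Klf1, 4 to 8 on Vpreb1, 9 to 13 on S100a8 and 1 to 6 on Cd3d, and 18 of the 24 Klf1 calls held in every one. With the control difference as a covariate 18 genes were called on the Mki67 term in place of 9, and with Top2a beside Mcm5 19 were called on each term, in place of 9 and 12. The shares of all genes called were 10.7% in place of 9.62% with the covariate. With Top2a beside Mcm5 they were 6.45% and 9.15% in place of 9.62% and 1.54%. Of the calls on Klf1, Vpreb1, S100a8 and Cd3d, the mean over probe sets kept 22 of 24, 3 of 6, 7 of 10 and 5 of 5, the labels as covariates 20, 5, 10 and 5, and the filter at log2 7 all 17, 4, 7 and 3 that it measured. No alternative called a gene for the Erg label. Leaving out arrays, and splitting spleens at log2 7 for the relations of Mki67 and Top2a, were chosen after seeing the data. Shares of all genes called moved with the settings too, so the counts alone are not read as results about the 39 genes. The causes of these shifts were not tested.

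With all 4 markers, the called falls of Mcm6 and Cdc6 on Vpreb1 turned to slopes of 0.0064 and 0.0085, which did not pass. The other sign changes were among values that did not pass. For the Erg label, Mki67 had 0.0139 without covariates, 0.0048 in line 6070 and 0.0466 in line 6113, and Top2a had 0.0738 in line 6070. Mki67 with S100a8 had rho = -0.0768, and r = -0.0509 without the 2 farthest arrays. Top2a with Vpreb1 in the 32 dimmer spleens had rho = 0.1125, and r = 0.2701 without the 2 farthest arrays. Mki67 with Cd3d in the 38 dimmer spleens had rho = -0.029. No paired analysis was possible because replicate numbers only name arrays in accession order. With the 2-digit number of the tumour identifier as a block, 0 of 39 genes were called for the Erg label. Dim probe sets, Tyms above all, limit what can be seen near the floor.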
